A study of Mus musculus with 3 samples.

Results

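The genes described are 10 mouse genes for abundant proteins of the neutrophil: Mpo, Elane, Prtn3, Ctsg, Lyz2, Ltf, Camp, Ngp, S100a8 and S100a9. They were examined in a map of 5-hydroxymethylcytosine (5hmC) peaks in bone marrow cells. A peak was assigned to a gene when its midpoint lay in the gene's span or within 5 kb of either end, and this window held 107 of the 208468 distinct peaks (exact Poisson 95% interval of the count 87.7 to 129). The series has 3 samples, 1 of normal bone marrow and 2 of NIDF-AML, an acute myeloid leukaemia that the labels attribute to NPMc and FLT3-ITD together with the point mutants DNMT3A/R882H and IDH2/R140Q. The sources used here do not give mouse strain, age, how the mutants were introduced or whether animals were pooled. Captured 5hmC-bearing DNA was sequenced, and peaks were called with PICS, a model-based peak caller, per the file headers.

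Only the peak lists of both leukaemia samples were analysed here, and all 223267 lines of one are lines of the other. In both headers index 4 is the treatment, set against index 5 in one and index 6 in the other as control. Neither labels nor headers tie an index to a sample. The peaks are therefore described as those of the index 4 library, which may be of leukaemia or of normal marrow, with no replicate and no comparison between them. A line gives a position and no height, so the counts below say how many separate sites were listed and not how much 5hmC each held. If the control entered the calling, a listed site could be one with more 5hmC than the control, and a gap could be a stretch with no excess. Read depth is unknown, and intervals cover counting error only and treat peaks as independent. The labelled tissue could not be checked against marker expression, since no expression values were analysed here.

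Neutrophils carry ready-made antimicrobial proteins in granules that are filled in order as the cell matures. Primary (azurophil) granules are made in promyelocytes and hold myeloperoxidase and the serine proteases elastase, proteinase 3 and cathepsin G, encoded by Mpo, Elane, Prtn3 and Ctsg. Secondary (specific) granules are made later, in myelocytes, and hold lactoferrin (Ltf), the cathelicidin precursor (Camp) and neutrophilic granule protein (Ngp). Lysozyme, from Lyz2 in marrow, is stored in several granule types and was kept apart, while S100a8 and S100a9 encode calprotectin, which fills the cytosol. 5hmC is made from 5-methylcytosine by TET enzymes, sits almost wholly at CpG dinucleotides, and in many tissues is found over the bodies of active genes and at enhancers.

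The sequence just upstream of 4 of these genes is shown because the peaks of Ngp and S100a8 come nearest to the gene start, and because Elane and Prtn3 are neighbours that share peaks. Each is the 250 bases before the start, from RefSeq on build GRCm38.p6, at chr9:110419558-110419807 for Ngp, chr3:90668821-90669070 for S100a8, chr10:79886062-79886311 for Elane and chr10:79879417-79879666 for Prtn3, all on the plus strand. Capitals mark the CpG dinucleotides, of which there are 3 in Ngp, 2 in S100a8, 3 in Elane and 4 in Prtn3.
Ngp: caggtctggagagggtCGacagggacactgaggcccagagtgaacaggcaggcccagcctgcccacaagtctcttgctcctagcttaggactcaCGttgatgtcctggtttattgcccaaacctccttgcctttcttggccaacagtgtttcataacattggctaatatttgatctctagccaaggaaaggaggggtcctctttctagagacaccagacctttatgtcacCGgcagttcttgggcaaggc
S100a8: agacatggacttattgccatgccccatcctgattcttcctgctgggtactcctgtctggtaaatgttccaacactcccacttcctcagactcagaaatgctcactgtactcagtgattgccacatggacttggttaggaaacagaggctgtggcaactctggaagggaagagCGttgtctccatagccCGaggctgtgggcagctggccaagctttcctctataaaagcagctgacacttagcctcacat
Elane: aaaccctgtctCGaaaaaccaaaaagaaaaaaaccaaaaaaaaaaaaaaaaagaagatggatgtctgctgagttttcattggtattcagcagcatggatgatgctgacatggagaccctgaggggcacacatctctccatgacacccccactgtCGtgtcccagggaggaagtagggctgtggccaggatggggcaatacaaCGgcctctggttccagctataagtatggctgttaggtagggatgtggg
Prtn3: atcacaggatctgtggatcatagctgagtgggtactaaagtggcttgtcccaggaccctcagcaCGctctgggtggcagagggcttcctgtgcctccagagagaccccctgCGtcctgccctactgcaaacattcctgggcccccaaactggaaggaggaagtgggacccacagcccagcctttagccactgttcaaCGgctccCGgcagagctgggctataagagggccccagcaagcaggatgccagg

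No peak overlapped the promoter window (250 bases before to 50 after the start) of any of the 10 genes. Over all 17492 protein-coding genes with such a window, 4.01% of windows were overlapped by a peak, so a count of 0 among 10 is near the background. The windows of the granule genes were poor in CpG. They held from 1 (Lyz2) to 8 (Ctsg) CpG dinucleotides with a median of 3.5, against a median of 13 over all windows. The GC content of the 10 windows, 44.3 to 60.7%, lay around the overall median of 56.3%.

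Short matches to the motifs of myeloid factors were counted in the same windows on both strands. GAGGAA, a form of the site of PU.1, occurred in 6 of the 10 windows (Mpo, Elane, Prtn3, Ctsg, Ltf and S100a8) and in 27.5% of all windows. TTGCNNAA, a C/EBP form, occurred in 3 (Ltf, Ngp and S100a9) and in 10.1% of all. TGTGGT, a Runx form, occurred in 4 (Ctsg, Lyz2, Ltf and S100a9) and in 15.1% of all. The Ngp stretch printed above holds 2 C/EBP matches and no GAGGAA, and the S100a8 stretch holds 2 GAGGAA matches and no C/EBP match. A match is a description of the letters and not a measured binding site.

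All 10 genes had a peak within 5 kb, where 73.1% of the 21779 protein-coding genes had one. The share was 44.9% among genes under 5 kb, to which 8 of the granule genes belong, and 77.3% among genes of 5 to 25 kb, to which Mpo and Ltf belong. The lowest count was 4, at Ctsg, and 51.7% of protein-coding genes had at least 4. In the body itself 9 of 10 had a peak, Camp being the exception, against 66.6% of protein-coding genes. The median was 10.5 peaks per gene against 4 over all genes, and 0.685 peaks per kb of gene and flanks against 0.106, a ratio of 6.44. All 10 lay above the overall median density. The 10 genes were proposed with results of these peaks known, so these counts describe them and test nothing.

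**Figure D1:**
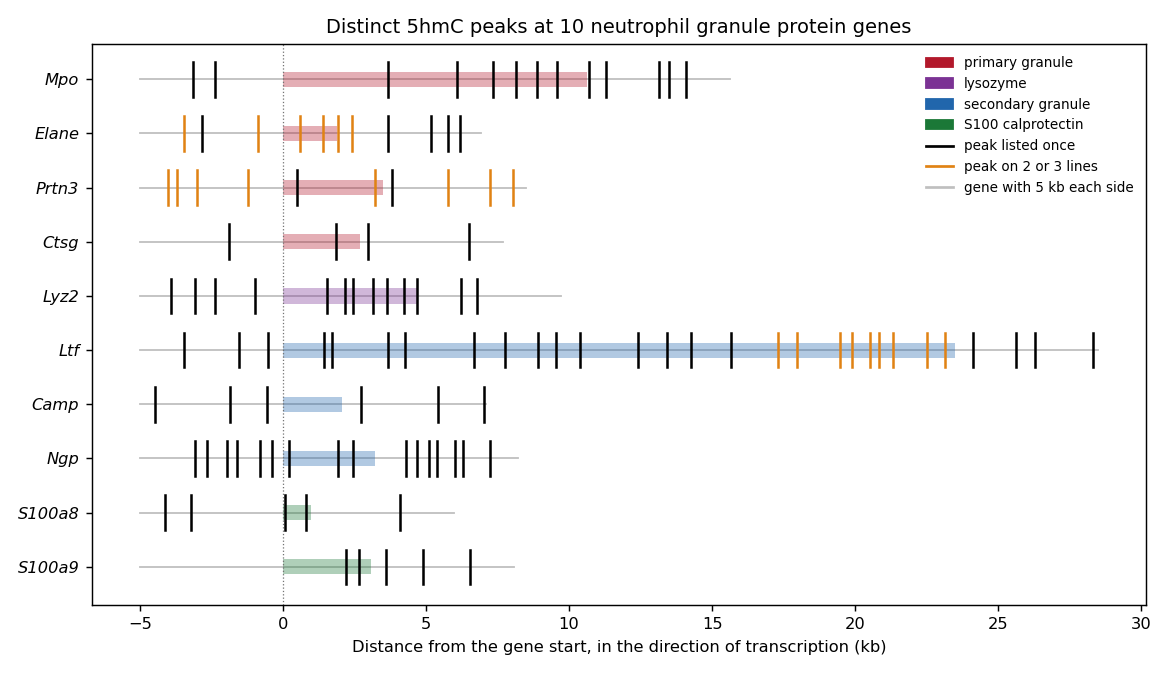
Map of the distinct 5hmC peaks at each of the 10 genes, with the distance of the peak midpoint from the gene start in kb on the x axis, read in the direction of transcription. Boxes are gene bodies, black ticks are peaks on 1 line of the list and orange ticks peaks on 2 or 3 lines. Ltf carries 22 ticks in its body and Camp none.

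Among the primary granule genes, Mpo held 13 peaks on chromosome 11 (87793784 to 87804412, plus strand). Mpo encodes the peroxidase that makes hypochlorous acid. No peak lay between 2384 bp before its start and 3680 bp inside the gene, a gap of 6064 bp. The 6 body peaks followed from 3680 to 9560 bp, and 5 more lay downstream, from 10680 to 14088 bp. Of those 5, 3 fell inside Lpo, the lactoperoxidase gene 2016 bp beyond the end of Mpo. Both upstream peaks of Mpo lay within an annotated non-coding RNA, Gm34064, that overlaps the start of Mpo.

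Elane and Prtn3 lie 3138 bp apart on chromosome 10 (79886312 to 79888216 and 79879667 to 79883174, both plus strand). Elane encodes neutrophil elastase and Prtn3 the related proteinase 3, an autoantigen of vasculitis. Elane had 11 peaks in its window and Prtn3 had 10, of which 5 counted for both, so the pair had 16 distinct peaks. Each gene had 2 in its body. Those of Elane lay 592 and 1408 bp past its start, and those of Prtn3 at 477 and 3205 bp. The stretch between both genes held 2 peaks, at 2832 and 888 bp before the start of Elane. Downstream of Elane, 3 of its 6 peaks fell in Cfd, which encodes complement factor D. Upstream of Prtn3 its 4 peaks, from 4019 to 1219 bp before the start, lay outside Plppr3, the next protein-coding gene, which ends 4709 bp from Prtn3.

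Ctsg, the cathepsin G gene, had the fewest peaks of the 10. Its 4 peaks on chromosome 14 (gene at 56099885 to 56102574, minus strand) lay 1886 bp before the start, 1862 bp inside the gene, and 2974 and 6486 bp from the start beyond its end. The exact Poisson interval of this count, 1.09 to 10.2, overlaps those of Mpo (6.92 to 22.2), Elane (5.49 to 19.7) and Prtn3 (4.80 to 18.4).

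Ctsg sits in a cluster of 14 granule protease genes, the mast cell proteases and granzymes, over 321 kb of chromosome 14 (55941451 to 56262334). That cluster with 5 kb at each edge held 9 peaks, 4 of them in the Ctsg window and 5 in all the rest. Of the 13 other proteases, 4 had a peak within 5 kb, where 44.9% of all genes under 5 kb and 77.3% of those of 5 to 25 kb had one. Mcpt8, a basophil protease gene, had 2 and the mast cell chymase gene Cma1 and the granzyme gene Gzme had 1 each, while Gzmb, Gzmc and Gzmd were among the 9 with none. Between 25 and 100 kb from Ctsg there was 1 peak in 150 kb, or 0.00667 per kb (exact Poisson interval 0.000169 to 0.0371), against 0.315 per kb in the Ctsg window (0.0859 to 0.807). The intervals do not overlap. The cluster holds near copies of the same gene family, and the sources used here do not say how reads that match several copies were treated.

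Lyz2 held 13 peaks on chromosome 10 (117277541 to 117282272, minus strand). Of these, 7 lay in the body from 1544 to 4672 bp past the start, 4 lay upstream between 3928 and 960 bp, and 2 downstream. No peak was listed from 960 bp before the start to 1544 bp after it, the widest gap in this window at 2504 bp. Lyz1, a close copy expressed in the gut, lies 5523 bp from Lyz2 and had 9 peaks within 5 kb, of which 4 are also those upstream of Lyz2. The body of Lyz1 held 1 peak against 7 in that of Lyz2, a gene of similar length. Reads that match both copies could have been placed on either, and no rule for them was found in the labels or headers.

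Ltf, the longest of the 10 genes, had the most peaks. Its 29 peaks on chromosome 9 (gene at 111019292 to 111042766, plus strand) numbered 22 in the body, 3 upstream and 4 downstream. Lactoferrin, its product, binds iron and starves bacteria of it. The body peaks ran from 1436 to 23124 bp past the start and were spread along the whole gene, with no gap over 2408 bp in the window. The nearest peak to the start was centred 516 bp before it. The 9 peaks from 17300 to 23124 bp were each on 2 lines of the list and all the others on 1. Among these 9 were the widest peaks of the whole set, of 209 bp at 19468 bp and 193 bp at 19892 bp. No other annotated gene came within 5 kb of Ltf.

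Camp was the only gene of the 10 with no peak in its body. Its product is cut to the antimicrobial peptide CRAMP, the mouse counterpart of a human cathelicidin peptide. The gene is short, 2.08 kb on chromosome 9 (109847377 to 109849456, minus strand). A count of 0 over that length has an exact Poisson interval of 0 to 1.77 per kb. Upstream, 3 peaks lay 4464, 1864 and 552 bp before the start. Downstream, 3 lay 2736, 5432 and 7016 bp from the start, the last of them inside Nme6, a nucleoside diphosphate kinase gene. Of the other body densities only that of S100a8 (2.08), which rests on 2 peaks, lies above the limit of 1.77. That of Lyz2 (1.48), on 7 peaks, lies below it.

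Ngp had the highest density of the 10 genes and the seventh highest of all protein-coding genes, at 1.21 peaks per kb of gene and flanks. It encodes a cathelicidin-related protein of the specific granule. Its window on chromosome 9 (gene at 110419808 to 110423012, plus strand) held 16 peaks (exact Poisson interval 9.15 to 26.0), of which 3 lay in the body, 6 upstream and 7 downstream. Peaks flanked the start closely, at 384 bp before and 200 bp after it. The median distance between neighbouring peaks was 520 bp, the shortest of the 10 genes, against 3512 bp at Ctsg, the longest. Of the downstream peaks, 2 lay in Klhl18, a gene of the Kelch family whose own body held 21.

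S100a8 and S100a9, which encode both chains of calprotectin, had 5 peaks each on chromosome 3. S100a8 (90669071 to 90670034, plus strand) had peaks 89 and 801 bp past its start, within a gene of under 1 kb, and others at 4135 and 3199 bp upstream and 4097 bp past the start. The peak at 89 bp, chr3:90669144-90669176, was the closest to a gene start in the set. S100a9 (90692630 to 90695721, minus strand) had none upstream. Its peaks lay 2217 and 2673 bp past its start in the body and 3617, 4881 and 6553 bp past the start beyond the gene. The 5 kb before S100a9 and the first 2217 bp of the gene thus held no listed peak, while S100a8 had 2 peaks in the 5 kb before its start.

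**Figure D2:**
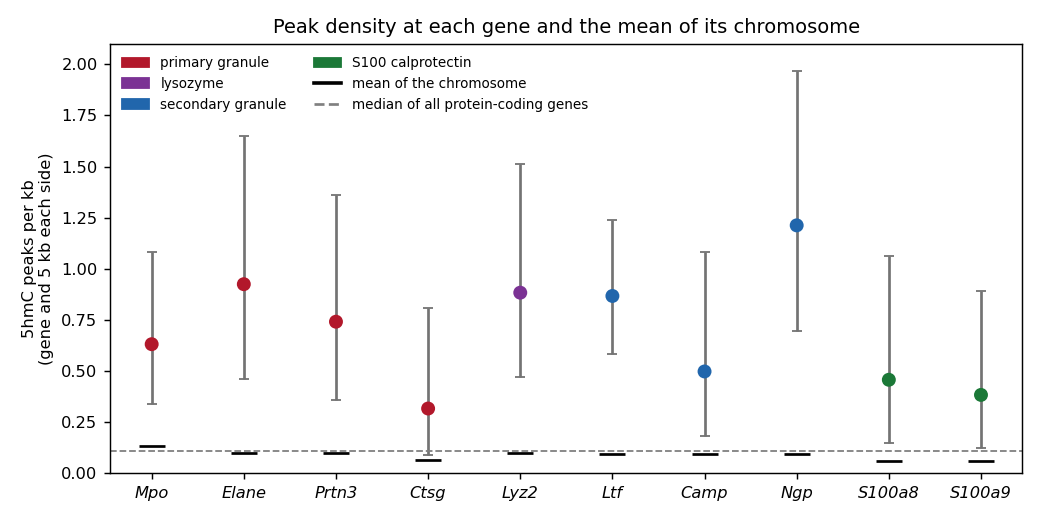
Peaks per kb of the gene with 5 kb on each side (y axis) for each of the 10 genes, coloured by granule class, with exact Poisson 95% intervals. Short black bars give the mean density of the gene's own chromosome and the dashed line the median of all protein-coding genes (0.106). Values run from 0.315 at Ctsg to 1.21 at Ngp, and each lies above its chromosome's bar.

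By class, the secondary granule genes had 51 distinct peaks in 58.8 kb, or 0.868 per kb (exact Poisson interval 0.646 to 1.14). The primary granule genes had 33 in 51.9 kb, or 0.636 per kb (0.438 to 0.893), and the calprotectin genes 10 in 24.1 kb, or 0.416 per kb (0.199 to 0.764). Lyz2 alone had 0.882 per kb (0.470 to 1.51). The ratio of primary to secondary was 0.733 with an exact interval for a ratio of Poisson rates of 0.458 to 1.16, and that of primary to calprotectin was 1.53 (0.737 to 3.48). Both intervals include 1, so neither difference exceeded counting error. Single genes ranged from 0.315 (Ctsg) to 0.924 (Elane) among primary and from 0.497 (Camp) to 1.21 (Ngp) among secondary granule genes, and were close, at 0.456 and 0.382, for S100a8 and S100a9.

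The ratio of secondary granule to calprotectin genes was 2.09, and its interval of 1.05 to 4.61 lay just above 1. The interval included 1 when any of Ltf, Ngp, S100a8 or S100a9 was left out, with ratios of 2.09 (0.951 to 4.95), 1.85 (0.896 to 4.18), 2.27 (0.913 to 7.30) and 1.90 (0.764 to 6.11). The difference did not hold in the gene bodies, where the calprotectin genes had 0.986 peaks per kb (0.269 to 2.53), the secondary granule genes 0.869 (0.563 to 1.28) and the ratio was 0.881 (0.304 to 3.48). In the bodies primary granule genes had 0.587 per kb (0.293 to 1.05) and Lyz2 1.48 (0.595 to 3.05). Chromosome 3, where the calprotectin genes lie, had a mean of 0.0572 peaks per kb, chromosome 9, where all 3 secondary granule genes lie, 0.0907, and chromosome 11 with Mpo 0.133. Set against the mean of their own chromosomes, the classes stood at 9.57-fold (7.12 to 12.6) for secondary granule, 7.26-fold (3.48 to 13.4) for calprotectin and 6.15-fold (4.24 to 8.64) for primary granule genes. On that scale the ratio of secondary granule to calprotectin genes was 1.32 (0.661 to 2.91). The ratio of primary to calprotectin genes fell below 1 on that scale, at 0.847 (0.408 to 1.93), and so did it in the bodies, at 0.595 (0.176 to 2.56).

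Single genes ranged from 4.73 times the mean of their chromosome at Mpo to 13.4 times at Ngp, with a median of 7.77. Over all protein-coding genes the median on this scale was 1.28. Ctsg stood at 4.98 times, Camp at 5.47, S100a9 at 6.67, Prtn3 at 7.58 and S100a8 at 7.97. Lyz2 reached 9.03, Elane 9.46 and Ltf 9.55. Ctsg, the sparsest gene by peaks per kb, was thus not the sparsest on this scale, since chromosome 14 had 0.0633 peaks per kb. Among protein-coding genes under 5 kb, 78.1% had a lower density than Ctsg, 82.4% than S100a9, 86.3% than S100a8 and 88.3% than Camp. The corresponding shares were 96.8% for Prtn3, 98.6% for Lyz2, 99.1% for Elane and 99.9% for Ngp. Among genes of 5 to 25 kb they were 92.6% for Mpo and 98.6% for Ltf.

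**Figure D3:**
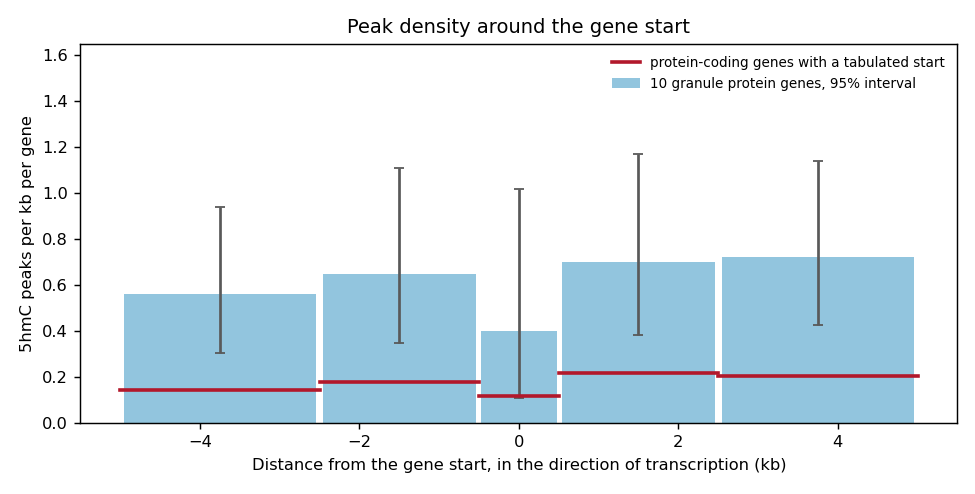
Peaks per kb per gene by distance from the gene start, in the direction of transcription, for the 10 genes (bars, with exact Poisson 95% intervals) and for 10583 protein-coding genes whose tabulated start is the end of their span (red lines). The bar around the start is the lowest, at 0.400, and each bar lies above its red line.

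Around the gene start the 10 genes together had the fewest peaks per kb. Within 500 bp on either side there were 4 peaks, 1 each at Prtn3 and S100a8 and 2 at Ngp, or 0.400 per kb (exact Poisson interval 0.109 to 1.02). From 500 to 2500 bp there were 0.650 per kb upstream (0.346 to 1.11) and 0.700 downstream (0.383 to 1.17). From 2500 to 5000 bp there were 0.560 upstream (0.306 to 0.940) and 0.720 downstream (0.427 to 1.14). All these intervals overlap. Over 10583 protein-coding genes the density was also lowest within 500 bp of the start, at 0.117 per kb, and was 0.178 upstream and 0.217 downstream at 500 to 2500 bp. The granule genes stood between 3.22 and 3.95 times those values in the 5 distance classes, so the shape around the start was much like that of genes in general. Peaks that belong to both Elane and Prtn3 count for each here.

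Peaks inside the 10 genes lay more often past the midpoint of the gene than before it. Of 47 body peaks, 31 lay past the midpoint, or 66.0% (Wilson 95% interval 51.7 to 77.8%), against 49.1% over the 10583 genes and 50.7% over the 7710 of these under 25 kb. The split was 13 past and 9 before the midpoint at Ltf, 5 and 2 at Lyz2, 5 and 1 at Mpo, 2 and 0 at S100a9, 2 and 1 at Ngp, and 1 and 0 at Ctsg. Elane, Prtn3 and S100a8 each had 1 on either side. Ltf gave 22 of the 47 peaks, and its own share, 59.1% (38.7 to 76.7%), lay below the pooled one. Each of the other genes had 7 body peaks or fewer. The share was looked at after the positions had been seen.

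**Figure D4:**
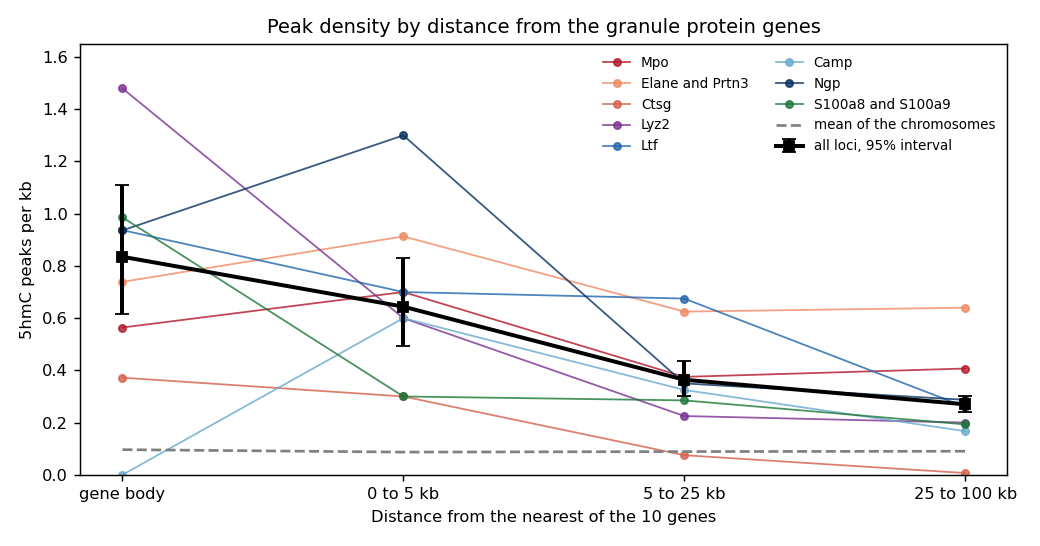
Peaks per kb (y axis) in the gene bodies and at 3 ranges of distance from the nearest of the 10 genes, for each locus (thin lines) and all together (black, exact Poisson 95% intervals), with the mean of the same chromosomes dashed. The pooled density falls from 0.835 in the bodies to 0.270 at 25 to 100 kb, while Elane with Prtn3 lies between 0.625 and 0.913 throughout.

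Peak density, taken over all loci together, fell with distance from the granule genes and stayed above the chromosome means out to 100 kb. Pooled over the loci it was 0.835 per kb in the bodies (exact Poisson interval 0.614 to 1.11), 0.644 within 5 kb (0.492 to 0.829), 0.364 at 5 to 25 kb (0.302 to 0.435) and 0.270 at 25 to 100 kb (0.241 to 0.301). The chromosome mean weighted in the same way was 0.0902 for the last range. Intervals of the inner and outer ranges do not overlap, while those of the bodies and the first 5 kb do. The wider surroundings hold other genes, whose own peaks are included. Ctsg was an exception to the pooled pattern. Its range of 25 to 100 kb had 0.00667 per kb, below the mean of 0.0633 for chromosome 14.

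Single loci held fewer peaks, and their bodies and first 5 kb are each set against the range of 25 to 100 kb. Overlap of separate intervals does not show that densities are equal, and no ratio between ranges was computed for the loci. At Elane and Prtn3 the density was 0.739 in the bodies (0.201 to 1.89), 0.913 in the first 5 kb outside (0.472 to 1.60) and 0.640 at 25 to 100 kb (0.518 to 0.782), with overlapping intervals in a peak-rich region. Mpo, with 0.564 in the body (0.207 to 1.23), 0.700 in the first 5 kb (0.281 to 1.44) and 0.407 at 25 to 100 kb (0.311 to 0.522), also gave overlapping intervals. Lyz2 had 1.48 in the body (0.595 to 3.05) against 0.200 (0.135 to 0.286), without overlap, while its first 5 kb, at 0.600 (0.220 to 1.31), overlapped the outer range. Ltf likewise had 0.937 in the body (0.587 to 1.42) against 0.260 (0.185 to 0.355), without overlap, and 0.700 in the first 5 kb (0.281 to 1.44), with overlap. Ngp was the other way round. Its first 5 kb, at 1.30 (0.692 to 2.22), lay above the outer 0.287 (0.207 to 0.386) without overlap, and its body, at 0.936 (0.193 to 2.74) on 3 peaks, overlapped it. S100a8 and S100a9 had 0.986 in the bodies (0.269 to 2.53), 0.300 in the first 5 kb (0.110 to 0.653) and 0.193 outside (0.129 to 0.278), all overlapping. Camp had 0.600 in the first 5 kb (0.220 to 1.31) and 0.167 at 25 to 100 kb (0.108 to 0.246), again with overlap. The range of 5 to 25 kb overlapped that of 25 to 100 kb at every locus but Ltf. There it had 0.675 (0.445 to 0.982), above the outer range without overlap, so the higher density at Ltf was not limited to the body.

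The peaks themselves were of ordinary width. Their median was 65 bp, the same as over all peaks, with a range from 17 bp (S100a9) to 209 bp (Ltf), and 12.1% were 100 bp or wider against 9.73% of all peaks. Positions at these genes are multiples of 8 bp, or of 4 bp at Ctsg, so widths and distances are known only to about that step. Intervals on more than 1 line were found at 3 of the genes, Elane, Prtn3 and Ltf. They made up 19 of the 107 distinct peaks (17.8%, against 6.45% of all distinct peaks), and both body peaks of Elane were on 3 lines each. Each interval was counted once in all values above.

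Other granule genes were set beside the 10. Of 11 further secondary granule genes, 10 had a peak within 5 kb and the median was 0.721 per kb, where 73.1% of all protein-coding genes had one and their median was 0.106. Itgam, the integrin chain of Mac-1, had 33 peaks, Cd177, a neutrophil surface protein, 19, and Pglyrp1, which binds bacterial peptidoglycan, 16. Olfm4, the olfactomedin of a subset of neutrophils, had none. The 11 include Lyz1, which shares 4 peaks with Lyz2, and without it 9 of 10 had a peak and the median was 0.724. All 5 tertiary granule genes had a peak, with a median of 0.533 per kb. The metal transporter gene Slc11a1 had 16 and the protease genes Adam8 and Mmp9 had 14 each.

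Of 11 further genes for primary granule contents, sorting and regulation, all had a peak, against 73.1% of all protein-coding genes, with a median of 0.270 per kb. Ap3b1, whose product sorts proteins to granules, had 48 peaks, 46 of them in its body of 207 kb, the proteoglycan gene Srgn 24 and the protease gene Ctsd 18. Ctsc, whose product activates the granule serine proteases, had 1 peak over 37.8 kb. Ctsc was picked out after its value was seen. Among 14 other S100 genes 11 had a peak, a share near the 73.1% of all genes, and the median was 0.297 per kb. There were 14 at S100a3, 9 each at S100a13 and S100a5, and none at S100a16, S100g and S100z. Several of these 14 genes are neighbours with overlapping windows, such as S100a3 and S100a4, so a peak can count for more than 1 of them. The calprotectin genes, at 0.456 and 0.382 per kb, lay inside the range of these 14, which reached 0.608 at S100a6.

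Granule genes of other lineages and a further neutrophil family had lower medians than the 10 genes. So did the further primary granule and sorting genes (0.270), the tertiary granule genes (0.533) and the other S100 genes (0.297). Of 7 eosinophil granule genes 6 had a peak, where 73.1% of all genes and 44.9% of those under 5 kb had one. The eosinophil median was 0.228 per kb, and Epx and Prg3 had 7 each, Ear2 5 and Ear10 none. Of the 4 stefin A genes, protease inhibitors abundant in mouse neutrophils, 2 had a peak (2 peaks at Stfa3 and 1 at Stfa2l1). Stfa1 and Stfa2 had none. Stfa2 and Stfa3 are under 5 kb, where 44.9% of genes had a peak. Stfa1 and Stfa2l1 are of 5 to 25 kb, where 77.3% had one. The stefin median was 0.033 per kb. The stefin and Ear genes belong to families of near copies, where the placing of reads is uncertain.

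**Figure D5:**
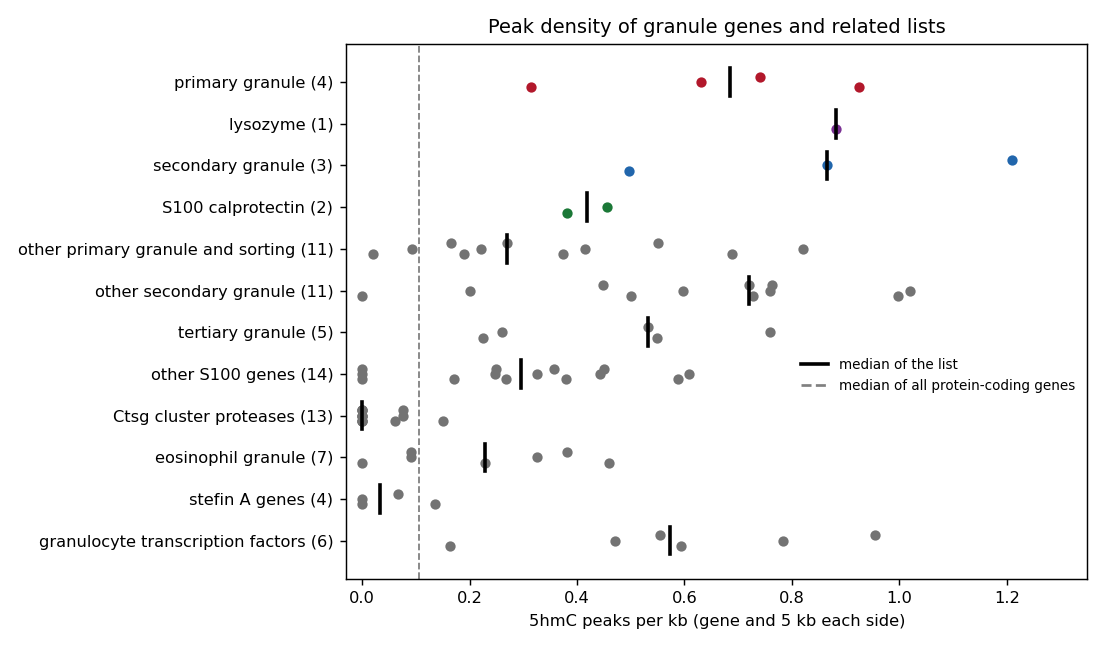
Peaks per kb of the gene with 5 kb on each side (x axis) for the genes of each list, with the number of genes in brackets, black bars for list medians and a dashed line for the median of all protein-coding genes. Further secondary granule genes have a median of 0.721, against 0.866 for those among the 10. Further primary granule and sorting genes have 0.270, against 0.685 for the primary granule genes among the 10. The proteases around Ctsg lie at or near 0.

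The 6 genes for transcription factors of granulocytes had 70 distinct peaks and a median of 0.573 per kb, with 34 at Spi1, 11 at Cebpb and 9 at Gfi1. Spi1 encodes PU.1 and Cebpb a C/EBP factor. The range of the 6 genes, 0.163 to 0.955 per kb, overlapped that of the 10 granule protein genes, 0.315 to 1.21, whose median was 0.685. Over the mean of their own chromosomes, the medians were 7.5 for these 6 genes, 7.9 for further secondary granule genes and 7.77 for the 10 genes. Tertiary granule genes had 5.84, other S100 genes 5.18 and further primary granule and sorting genes 3.07. Eosinophil granule genes had 2.44, stefin A genes 0.427 and the proteases around Ctsg 0.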

How the data were processed

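5hmC was captured from bone marrow DNA and sequenced, per the labels' protocols, in 1 normal and 2 NIDF-AML samples. The authors called peaks with PICS, per the file headers (read length 99 bp, fragment length 200 bp, 250 bp windows moved by 20 bp, at least 3 reads in a window and 10 in a region). The build, mm10, comes from the submitters' processing notes, and no aligner is named in the labels or headers. The deposited lists hold positions only, so no peak score could be used. Both lists are the same, and 14799 repeated lines were dropped.

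Genes, spans and promoters came from RefSeq (GRCm38.p6), matched by symbol. All 10 genes matched, and 108 gene models placed below 3 Mb were left out. Peak midpoints were counted in Python 3.11.15 with numpy 2.4.6, pandas 2.3.3 and scipy 1.17.1, after the counting was tested on simulated data. Exact Poisson, Wilson and rate ratio intervals are at 95%. The members and lists were chosen with earlier results of these data known, and no hypothesis test was made. All 10 genes were named, with every protein-coding neighbour within 5 kb, and from each further list the 3 genes with the most peaks and up to 3 with none. One list, with a higher median density than the 10 genes, is not reported here. Alternatives changed the window (0, 2 or 10 kb), repeats, overlap rule and class of Lyz2. Scaling to the chromosome mean and leaving out single genes were added after the data were seen.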

Additional observations from a re-analysis of the deposited data

How the results depend on the processing

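Keeping repeated lines, counting any overlap of 1 bp, and windows of 2 or 10 kb left the class densities and the ratios of primary granule to secondary granule and calprotectin genes within their intervals, and the peak count and median density of the 10 genes within 1.5 times. Moving Lyz2 to another class left those ratios within their intervals too. With gene spans only, the count of distinct peaks went from 107 to 47, the calprotectin density from 0.416 to 0.986 per kb, and the ratio of primary to calprotectin genes from 1.53 to 0.595, since the flanks were left out. The latter was also below 1, at 0.847, over chromosome means. The ratio of secondary to calprotectin genes, 2.09, turned to 0.881 with gene spans only. Its interval included 1 with 2 kb on each side (1.87), over chromosome means (1.32) and without Ltf (2.09), Ngp (1.85), S100a8 (2.27) or S100a9 (1.90). Its interval stayed above 1 with repeated lines (2.46), 1 bp overlap (2.09), 10 kb (1.78), Lyz2 added (2.09) or Camp left out (2.32). These settings for it were chosen after seeing the data. Leaving out Mpo, Ctsg, Ltf or Ngp kept the ratio of primary to secondary genes between 0.731 and 0.853. Elane, Prtn3 and Camp were not left out for this ratio, so that range does not cover them. The ratio of the median density to that of all genes stayed between 5.11 and 8.41 over the windows, with repeats and for autosomes. Leaving out either leukaemia replicate gave the same values because the lists are identical, which says nothing about stability. No stricter score threshold could be applied, as the lists have no score. No paired analysis was possible because normal marrow had no list here and no groups were compared. Read depth is unknown, and 9 of the 10 genes rest on 16 peaks or fewer.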
